A study of Homo sapiens with 12 samples.

Results

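The genes described here are 8 genes of blood vessel growth, *VEGFA*, *VEGFB*, *VEGFC*, *PGF*, *ANGPT1*, *ANGPTL4*, *PECAM1* and *ENG*, chosen by name from the 32152 genes of an RNA-seq table. The table holds 12 libraries from MDA-MB-231 and Hs-578T, both human triple-negative breast cancer lines with mesenchymal features, in 6 groups of 2. In each line the groups were parental cells, ERK5-ko cells and MEK5DD cells. ERK5-ko cells had CRISPR/Cas9 guides against *MAPK7*, the gene of the kinase ERK5, and were grown from single cells. In MDA-MB-231 only 1 clone survived sorting, and the Hs-578T ERK5-ko group may also stand for 1 clone. MEK5DD cells express a MEK5 variant that is always active, MEK5 being the kinase upstream of ERK5. No drug or other treatment was named for the sequenced cells, which were cultured cells harvested at 70% confluence. The labels gave passage 29 and 30 for parental MDA-MB-231, 7 and 8 for its ERK5-ko, and 10 and 11 for its MEK5DD, against 83 and 84 for parental Hs-578T and 8 and 9 for both of its derivatives. In every comparison with parental cells the passage differs along with the genotype, as does the clone for MDA-MB-231 ERK5-ko, and these cannot be told apart. The 2 libraries of each group came from consecutive labelled passages, and the labels do not say that they came from separately derived cells, so p-values measure only the spread between such passages.

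VEGF-A, the main driver of new vessel growth, binds the receptor tyrosine kinases VEGFR1 and VEGFR2 on endothelial cells, and its gene is a classical target of hypoxia-inducible factors. VEGF-B and placental growth factor (PlGF, from *PGF*) bind VEGFR1, while VEGF-C acts mainly through VEGFR3 on lymphatic vessels. Angiopoietin 1 (*ANGPT1*) activates the receptor TIE2 and steadies mature vessels, and ANGPTL4 is a secreted inhibitor of lipoprotein lipase that PPARs and hypoxia induce. Endoglin (*ENG*) is a TGF-beta co-receptor, and PECAM1 (CD31) is an adhesion molecule of endothelial and blood cells. In tumors these ligands are made by the cancer cells as well as by the stroma, whereas their receptors sit mainly on the vessels.

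Library depth was 20248162 to 27791195 reads, of which 92.05% to 94.5% fell on listed genes. By Western blot, the paper on these cells reports significantly less ERK5 protein in the ERK5-ko cells of both lines than in parental cells. The targeted gene was not lower at the RNA level. *MAPK7* had 13.3 and 14.3 RPKM (reads per kilobase of gene model, scaled to library depth) in parental MDA-MB-231 and 16.3 and 17.8 RPKM in its ERK5-ko, and 14.0 and 16.0 RPKM in parental Hs-578T and 17.8 and 18.1 RPKM in its ERK5-ko, which says nothing of whether the edited gene still makes protein. *MAP2K5*, the gene of MEK5, had 12.9 and 13.6 RPKM in parental MDA-MB-231 and 188 and 184 RPKM in its MEK5DD cells (log2 fold change 3.77, adjusted p = 3.31e-10 by limma). In Hs-578T it had 14.6 and 16.9 RPKM in parental and 21.3 and 23.8 RPKM in MEK5DD cells (log2 fold change 0.50, adjusted p = 0.00492), and the rise differed between the lines (difference 3.26 on the log2 scale, adjusted p = 4.84e-08). *ESR1* and *PGR*, the hormone receptor genes that triple-negative tumors lack, averaged at most 0.0906 and 0.325 RPKM in any group. *VIM* averaged 0.5 RPKM or more in every group, and so did *ERBB2*, *KRT8* and *KRT18*. *EPCAM* reached that level in the MDA-MB-231 groups only. *CDH1* reached it in parental and ERK5-ko cells of MDA-MB-231 and in ERK5-ko cells of Hs-578T.

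Between the parental cells of the lines, no difference was called for *VEGFA*, *VEGFB* and *VEGFC*, and the other 5 genes differed. In bulk RNA, fewer cells that express a gene and less of its RNA per cell cannot be told apart. *VEGFA* had 124 and 126 RPKM in parental MDA-MB-231 and 108 and 109 RPKM in parental Hs-578T. *VEGFB* had 102 and 112 RPKM in MDA-MB-231 and 109 and 116 RPKM in Hs-578T, and *VEGFC* had 21.6 and 24.4 RPKM against 27.7 and 27.0 RPKM. None of these 3 genes passed the test between the parental lines, where a gene is said here to have passed, risen or fallen when its Benjamini-Hochberg adjusted p, from limma on log2(RPKM + 0.5) over 13737 protein-coding genes, was under 0.05. The differences on that scale, Hs-578T against MDA-MB-231, were -0.21 for *VEGFA* (95% interval -0.43 to 0.01, adjusted p = 0.0741), 0.07 for *VEGFB* (-0.16 to 0.30, adjusted p = 0.551) and 0.25 for *VEGFC* (-0.01 to 0.50, adjusted p = 0.0688). The median of all genes in this comparison was -0.19, and scaling the libraries by median ratios, which brings it to 0.02, turned *VEGFA* to 0.03 and let *VEGFB* (0.30, adjusted p = 0.0261) and *VEGFC* (0.48, adjusted p = 0.00224) pass. With the replicate number as a block within each line, *VEGFA* was lower in Hs-578T (-0.21, adjusted p = 0.0429). *VEGFC* also passed with quantile normalization (0.46, adjusted p = 0.00235) and without Hs-578T MEK5DD replicate 1 or 2 (adjusted p = 0.0354 and 0.0355), and *VEGFA* without MDA-MB-231 MEK5DD replicate 1 or 2 (adjusted p = 0.0431 and 0.043), libraries that entered the limma fit through the shared spread.

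The other 5 genes differed between the parental lines, 4 being higher in Hs-578T, where 31.3% of the tested genes were higher by the same rule, and 1 lower, where 46.0% were. *PGF* had 12.04 and 9.13 RPKM in parental Hs-578T and 4.63 and 4.61 RPKM in MDA-MB-231 (log2 fold change 1.10, adjusted p = 1.40e-05). *ANGPT1* showed a far wider gap, with 61.7 and 76.7 RPKM in Hs-578T and 1.26 and 1.41 RPKM in MDA-MB-231 (log2 fold change 5.24, adjusted p = 8.37e-12). *PECAM1* had 5.39 and 5.72 RPKM in Hs-578T against 0.694 and 0.841 RPKM in MDA-MB-231 (log2 fold change 2.26, adjusted p = 4.44e-09). Both Hs-578T libraries lay above both MDA-MB-231 libraries for each of these genes, and a stricter call with a fold above 1.5 (23.5% of genes) or below 0.5 (20.7% of genes) on the fitted scale gave the same counts. Both counts include *ENG* and *ANGPTL4*, which passed the filter on low values only through the line where they are high, so that no support is drawn from them.

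*ENG* and *ANGPTL4* were each read in 1 of the lines only, and entered the tests through the line in which they are read. *ENG* had 49.4 and 57.4 RPKM in parental Hs-578T, from 2264 and 2384 reads, and 3 and 2 reads in parental MDA-MB-231. Set against a floor of 3 reads per library, it was at least 934-fold higher in Hs-578T. *ANGPTL4* ran the other way, with 50 and 75 reads (1.85 and 2.47 RPKM) in parental MDA-MB-231 and 3 and 1 reads in parental Hs-578T, which makes it at least 17.1-fold higher in MDA-MB-231. No library of any MDA-MB-231 group had more than 3 reads of *ENG*, and no Hs-578T library had more than 3 of *ANGPTL4*.

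The stretches before the RefSeq start sites of these line-restricted genes are shown because these are the 2 genes whose reads were nearly absent from 1 of the lines. The *ANGPTL4* stretch precedes the RefSeq start at 8364155 but lies within the span of the counted gene, which begins at 8363289. RefSeq (GRCh38.p14) gave a promoter window for 5 of the 8 genes (*VEGFB*, *VEGFC*, *PGF*, *ANGPTL4* and *ENG*), and each stretch below is the longest run of the 250 bases upstream that no GENCODE 29 exon covers, read 5′ to 3′ on the gene's strand, with searched motifs in capitals.
ENG, chr9:127854757-127854908, minus strand: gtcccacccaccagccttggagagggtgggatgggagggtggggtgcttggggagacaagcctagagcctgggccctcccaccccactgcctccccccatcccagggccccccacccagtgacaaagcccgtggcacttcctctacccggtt
ANGPTL4, chr19:8363905-8364150, plus strand: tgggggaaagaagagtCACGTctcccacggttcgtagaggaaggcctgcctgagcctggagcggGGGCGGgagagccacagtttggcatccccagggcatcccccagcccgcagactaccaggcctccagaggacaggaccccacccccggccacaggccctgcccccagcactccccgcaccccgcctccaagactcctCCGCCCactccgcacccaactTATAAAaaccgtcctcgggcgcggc
The motifs, searched on both strands over the full 250 bases, were the hypoxia response core ACGTG, the GC box GGGCGG, the TATA box TATAAA, the AP-1 site TGANTCA and the MEF2 site (CTA and TAG with any 4 bases between them). MEF2 and AP-1 proteins are known targets of ERK5 signaling. The *ANGPTL4* window held 1 hypoxia response core, 2 GC boxes and 1 TATA box, none of which overlapped, while the *ENG* window held none of the 5 motifs. Of all 35116 promoter windows, 18.5% held the hypoxia response core, 42.6% a GC box, 10.7% a TATA box, 6.57% an AP-1 site and 2.36% a MEF2 site. The *VEGFB* window held 6 GC boxes, that of *VEGFC* 2, and the 2 windows of *PGF* 2 and 3, with no match to the other motifs in any of them.

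**Figure D1:**
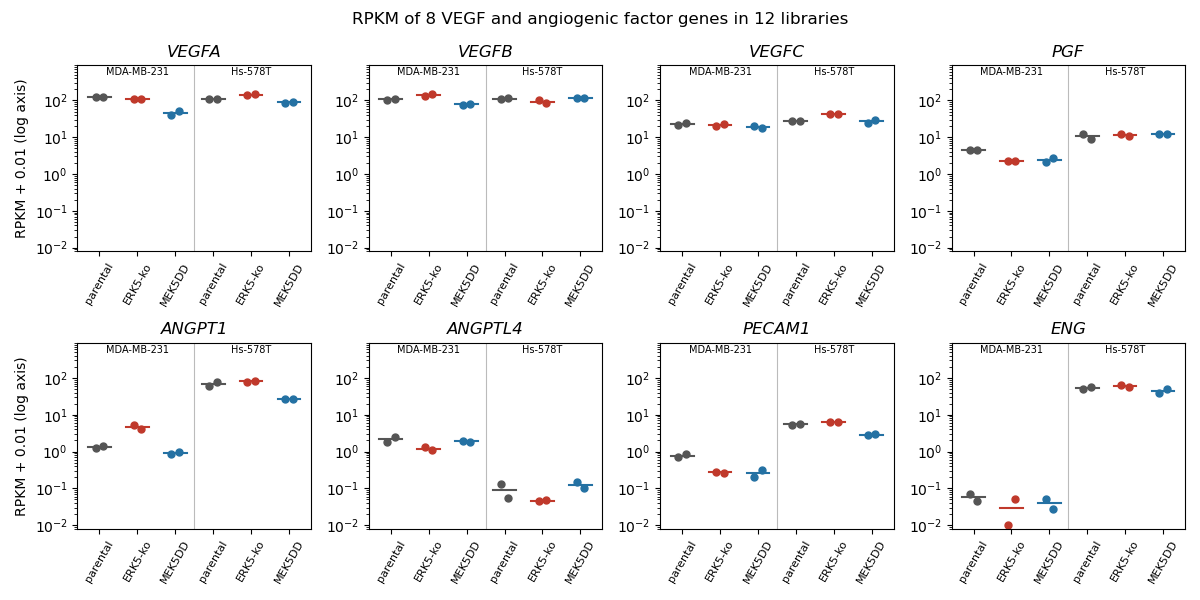
RPKM plus 0.01 on a log axis for the 8 genes in the 12 libraries, 1 point per library, with a line at each group mean (n = 2). The parental groups of the lines lie near each other for each of *VEGFA*, *VEGFB* and *VEGFC*, *ENG* is at 49.4 and 57.4 RPKM in parental Hs-578T and at no more than 3 reads in any MDA-MB-231 library, and *ANGPTL4* shows the reverse.

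Against parental cells, the 8 genes did not move as a block. In MDA-MB-231 ERK5-ko cells, 7 of the 8 were above the floor, of which *ANGPT1* and *VEGFB* rose (6.91% of all tested genes rose) and *PGF*, *PECAM1* and *ANGPTL4* fell (10.4% fell). In Hs-578T ERK5-ko cells *VEGFA* and *VEGFC* rose (19.7% of all genes) and none of the 7 fell by limma (19.7% of all genes), where 1, *VEGFB*, had an unadjusted p under 0.05 and 0 passed by voom on the recovered reads. In MDA-MB-231 MEK5DD cells *VEGFA*, *VEGFB*, *PGF*, *ANGPT1* and *PECAM1* fell (23.8% of all genes) and none of the 7 rose (17.5% of all genes, with 0 at an unadjusted p under 0.05 and 0 by voom). In Hs-578T MEK5DD cells *ANGPT1* and *PECAM1* fell (17% of all genes) and again none of the 7 rose (6.44% of all genes, with 0 at an unadjusted p under 0.05 and 0 by voom). The median log2 fold change of the genes above the floor was -0.18 in ERK5-ko cells of MDA-MB-231, 0.19 in those of Hs-578T, -0.46 in MDA-MB-231 MEK5DD and -0.25 in Hs-578T MEK5DD, beside medians over all tested genes of -0.04, 0.01, -0.01 and -0.08. Here and below, the counts and medians of the 8 genes leave out those at the floor. The shares and medians over all tested genes keep genes at the floor in that line, so the sets are not alike. The stricter call was met by 1 gene in each comparison. In MDA-MB-231 ERK5-ko this was *ANGPT1*, higher (2.80% of all genes against 1.07% lower), and in Hs-578T ERK5-ko *VEGFC*, higher (9.35% against 3.27% lower). In MDA-MB-231 MEK5DD it was *VEGFA*, lower (6.31% of all genes against 7.64% higher), and in Hs-578T MEK5DD *ANGPT1*, lower (1.49% against 2.90% higher). The comparisons within a line share their parental libraries. With 2 libraries against 2, the smallest two-sided p of an exact permutation test is 0.333, so that all p-values here rest on the spread pooled over genes and groups.

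**Figure D2:**
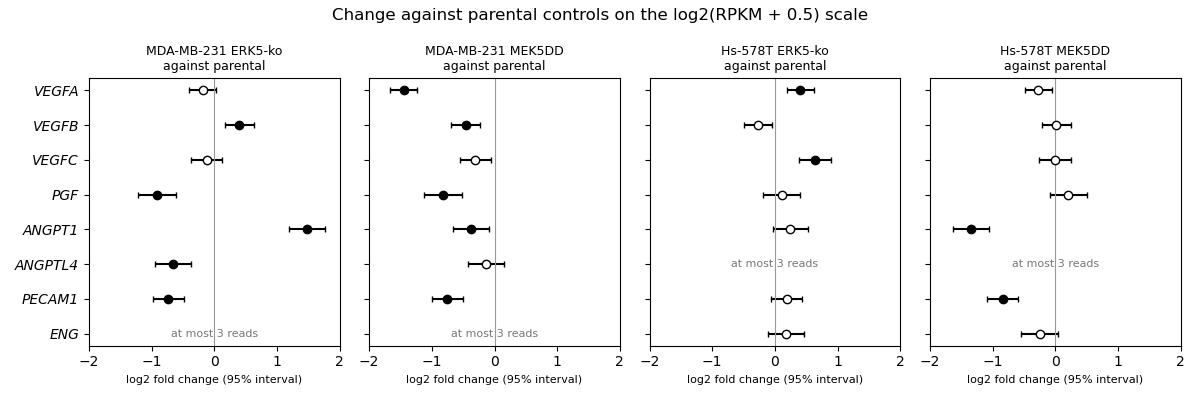
Log2 fold change against parental cells of the same line on the log2(RPKM + 0.5) scale, with 95% intervals from limma. Filled points passed at an adjusted p under 0.05, as *VEGFA* did at -1.45 in MDA-MB-231 MEK5DD, and genes with at most 3 reads in every library of both groups carry no point.

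*VEGFA* (chr6:43770184-43786487 on GRCh38) had, per length, the highest or second highest level of the 8 genes in every group. In MDA-MB-231 it had 124 and 126 RPKM in parental, 110.0 and 110.1 RPKM in ERK5-ko and 40.8 and 50.5 RPKM in MEK5DD cells. The MEK5DD libraries were the lowest of all 12 for this gene, and the ERK5-ko libraries lay just below the parental ones without overlap. In MEK5DD cells it fell by 63.4% (log2 fold change -1.45, 95% interval -1.67 to -1.23, adjusted p = 4.94e-07), and the ERK5-ko difference was -0.18 (-0.40 to 0.04, adjusted p = 0.243). In Hs-578T it had 108 and 109 RPKM in parental, 139 and 148 RPKM in ERK5-ko and 87.8 and 91.5 RPKM in MEK5DD cells. ERK5-ko was thus the highest group of all and did not overlap with parental cells, and MEK5DD was lowest within the line. The rise in ERK5-ko cells was 1.33-fold (log2 fold change 0.41, 0.19 to 0.63, adjusted p = 0.00721), though without ERK5-ko replicate 2 it was 0.36 with adjusted p = 0.0658. The MEK5DD difference of -0.27 missed the threshold (adjusted p = 0.0736) and passed with the replicate block (adjusted p = 0.037) or without either MDA-MB-231 MEK5DD library (adjusted p = 0.0489 and 0.0487). Ordered by mean, the 6 groups ran from Hs-578T ERK5-ko through parental MDA-MB-231, MDA-MB-231 ERK5-ko, parental Hs-578T and Hs-578T MEK5DD to MDA-MB-231 MEK5DD, with no overlap between neighbouring groups.

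*VEGFB* (chr11:64234538-64238793) rose in ERK5-ko and fell in MEK5DD cells of MDA-MB-231. In MDA-MB-231 it had 102 and 112 RPKM in parental, 134 and 149 RPKM in ERK5-ko and 77.0 and 78.2 RPKM in MEK5DD cells, and the 3 groups did not overlap. ERK5-ko was 1.32-fold higher than parental (log2 fold change 0.40, adjusted p = 0.0227) and in MEK5DD cells it fell by 27.6% (-0.46, adjusted p = 0.00411). The ERK5-ko rise missed the threshold without parental replicate 1 (0.33, adjusted p = 0.187), parental replicate 2 (0.47, adjusted p = 0.0642) or ERK5-ko replicate 2 (0.32, adjusted p = 0.17). In the other line *VEGFB* had 109 and 116 RPKM in parental, 102 and 84.7 RPKM in ERK5-ko and 115 and 113 RPKM in MEK5DD cells, so that the ERK5-ko libraries were the lowest of the line and the MEK5DD libraries lay within the parental range. The ERK5-ko difference of -0.27 missed the threshold (adjusted p = 0.0604) and passed with the replicate block (adjusted p = 0.0337), without ERK5-ko replicate 1 (-0.41, adjusted p = 0.0218) and without either MEK5DD library (adjusted p = 0.0463 and 0.0462). The MEK5DD difference was 0.02 (-0.21 to 0.25, adjusted p = 0.921).

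*PGF* (chr14:74941834-74955784) fell in both derivatives of MDA-MB-231. It had 4.63 and 4.61 RPKM in parental, 2.25 and 2.19 RPKM in ERK5-ko and 2.16 and 2.65 RPKM in MEK5DD cells, from 78 to 197 reads per library. Both derivatives lay at about the same level, well below parental cells, and overlapped with each other. *PGF* fell by 52.0% in ERK5-ko (log2 fold change -0.91, -1.21 to -0.62, adjusted p = 0.00101) and fell by 47.9% in MEK5DD (-0.82, adjusted p = 0.000495). The Hs-578T libraries had 12.04 and 9.13 RPKM in parental, 11.97 and 10.8 RPKM in ERK5-ko and 12.4 and 12.04 RPKM in MEK5DD cells. The wide parental pair took in the ERK5-ko libraries and ended just below the MEK5DD ones, and the differences were 0.11 (-0.19 to 0.41, adjusted p = 0.548) and 0.21 (-0.09 to 0.51, adjusted p = 0.299). Without parental replicate 2, the Hs-578T ERK5-ko difference turned to -0.08.

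*VEGFC* (chr4:176683538-176792727, minus strand) stood out in a single group. In Hs-578T it had 27.7 and 27.0 RPKM in parental, 42.7 and 43.4 RPKM in ERK5-ko and 24.8 and 29.8 RPKM in MEK5DD cells. The ERK5-ko pair was the highest of all 12 libraries, and the MEK5DD pair spanned the parental one. The rise in ERK5-ko cells was 1.57-fold (log2 fold change 0.64, 0.39 to 0.90, adjusted p = 0.00117), and the MEK5DD difference was -0.01 (-0.26 to 0.25, adjusted p = 0.98), a sign that changed with the scaling. In MDA-MB-231 it had 21.6 and 24.4 RPKM in parental, 19.7 and 22.6 RPKM in ERK5-ko and 19.8 and 17.3 RPKM in MEK5DD cells. ERK5-ko overlapped with parental cells (-0.12, -0.37 to 0.13, adjusted p = 0.539), and MEK5DD lay below them by -0.30 (adjusted p = 0.0542), which passed with the replicate block (adjusted p = 0.0423), by voom on recovered reads (-0.31, adjusted p = 0.0481) and without either Hs-578T MEK5DD library (adjusted p = 0.0246 each).

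Taken as a set, the 4 ligands of the VEGF family amounted to 260 RPKM in parental MDA-MB-231, 275 RPKM in ERK5-ko and 144 RPKM in MEK5DD cells, and to 259, 292 and 243 RPKM in the same groups of Hs-578T (means of 2 libraries, SD 3.43 to 13.1). *VEGFA* made up 48.1% ± 1.37 of that sum in parental MDA-MB-231, 40.1% ± 1.89 in ERK5-ko and 31.6% ± 3.36 in MEK5DD cells (SD, n = 2). Its share was 41.8% ± 0.260 in parental Hs-578T, 49.3% ± 3.295 in ERK5-ko and 36.9% ± 0.299 in MEK5DD cells. The ratio of *VEGFA* to *VEGFB* was 1.124 and 1.213 in parental MDA-MB-231, 0.823 and 0.737 in ERK5-ko and 0.530 and 0.646 in MEK5DD cells. In Hs-578T the ratio was 0.989 and 0.936 in parental, 1.36 and 1.75 in ERK5-ko and 0.767 and 0.808 in MEK5DD cells. The ERK5-ko ratio lay below the parental ratio in MDA-MB-231 and above it in Hs-578T, with no overlap in either line, and the MEK5DD ratio lay below the parental ratio in both. These shares and ratios depend on the gene lengths that the RPKM values contain, and a ratio shows unequal change and not which gene changed.

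**Figure D3:**
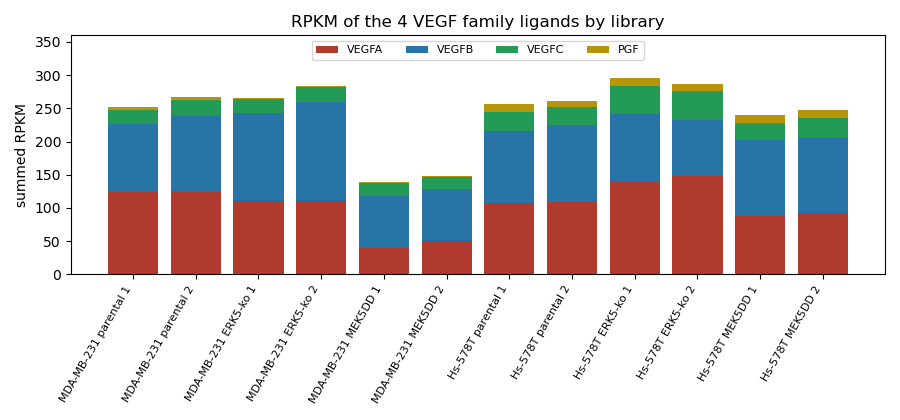
Stacked RPKM of *VEGFA*, *VEGFB*, *VEGFC* and *PGF* in each of the 12 libraries, from 0. The MDA-MB-231 MEK5DD libraries have the shortest bars (mean 144 RPKM), and the Hs-578T ERK5-ko libraries the tallest (mean 292 RPKM).

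*ANGPT1* (chr8:107249482-107498055, minus strand) had the widest fitted change of the 7 genes above the floor in both ERK5-ko cells of MDA-MB-231 and MEK5DD cells of Hs-578T. In MDA-MB-231 it had 1.26 and 1.41 RPKM in parental, 5.11 and 4.15 RPKM in ERK5-ko and 0.844 and 0.982 RPKM in MEK5DD cells, from 41 to 233 reads. The 3 groups did not overlap, with ERK5-ko on top. The rise in ERK5-ko cells was 3.47-fold between means (log2 fold change 1.48, 1.19 to 1.76, adjusted p = 2.94e-05). In MEK5DD cells it fell by 31.6% (-0.38, adjusted p = 0.0354), a call that was lost without any 1 of the 4 parental and MEK5DD libraries of that line (adjusted p = 0.066 to 0.198), without either Hs-578T ERK5-ko library (0.0535 each), with a pseudocount of 1 (0.0786), without the filter on low values (0.0518), after quantile normalization (0.189) and by voom (0.11). Hs-578T libraries had 61.7 and 76.7 RPKM in parental, 79.5 and 83.8 RPKM in ERK5-ko and 27.0 and 26.5 RPKM in MEK5DD cells. The MEK5DD pair lay far below the other 2 groups, and the mean fell by 61.3% from parental (log2 fold change -1.35, -1.63 to -1.06, adjusted p = 4.58e-05). ERK5-ko lay above parental without overlap, by 0.25 (-0.04 to 0.53, adjusted p = 0.155), which passed only without parental replicate 2 (0.40, adjusted p = 0.0437) among the libraries left out.

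*ANGPTL4* (chr19:8363289-8374373) was measurable in MDA-MB-231 only, and from few reads. It had 1.85 and 2.47 RPKM in parental, 1.30 and 1.06 RPKM in ERK5-ko and 1.98 and 1.85 RPKM in MEK5DD cells, which are 29 to 75 reads. ERK5-ko was the lowest group, while MEK5DD overlapped with parental. In ERK5-ko cells it fell by 45.4% (log2 fold change -0.66, -0.95 to -0.37, adjusted p = 0.00584), which missed the threshold without parental replicate 2 (-0.49, adjusted p = 0.072) or ERK5-ko replicate 2 (-0.56, adjusted p = 0.0601). The MEK5DD difference was -0.13 (-0.42 to 0.16, adjusted p = 0.469), a sign that turned with quantile normalization (0.001) and without parental replicate 2 (0.04). The whole span of *ANGPTL4*, 11085 bases, lies within *ELAVL1* on the opposite strand, which had 32.6 to 72.7 RPKM (1354 to 4145 reads) in the 12 libraries. The kit was stranded but the strand setting of the counting is not given in the sources used here. In Hs-578T, *ANGPTL4* had 1 to 3 reads per library beside *ELAVL1* at that level.

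*ENG* (chr9:127815012-127854756, minus strand) was measurable in Hs-578T only, where it had 49.4 and 57.4 RPKM in parental, 64.2 and 56.8 RPKM in ERK5-ko and 39.8 and 50.2 RPKM in MEK5DD cells. Each derivative overlapped with parental cells. The differences were 0.18 in ERK5-ko (-0.11 to 0.47, adjusted p = 0.308) and -0.25 in MEK5DD (-0.54 to 0.04, adjusted p = 0.205), the latter passing without MEK5DD replicate 2 (-0.42, adjusted p = 0.0396). An antisense entry shares 6455 bases of the *ENG* span and had 4 to 33 reads per library.

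*PECAM1* (chr17:64319415-64413776, minus strand) was low in both lines. Hs-578T cells had 5.39 and 5.72 RPKM in parental, 6.48 and 6.31 RPKM in ERK5-ko and 2.81 and 2.96 RPKM in MEK5DD cells. The MEK5DD pair lay at about the midpoint between 0 and the parental pair, and fell by 48.0% (log2 fold change -0.84, -1.09 to -0.59, adjusted p = 0.000469), and ERK5-ko lay just above parental by 0.19 (-0.06 to 0.44, adjusted p = 0.212). In MDA-MB-231 it had 0.694 and 0.841 RPKM in parental, 0.276 and 0.250 RPKM in ERK5-ko and 0.194 and 0.309 RPKM in MEK5DD cells. These values rest on 22 and 30 reads in parental cells, 8 and 8 in ERK5-ko and 6 and 11 in MEK5DD cells. Both derivatives were lower than parental without overlap, and *PECAM1* fell by 65.7% (-0.73, adjusted p = 0.00132) and fell by 67.2% (-0.76, adjusted p = 0.000249). The log2 values understate these falls because of the added 0.5. Since *PECAM1* and *ENG* are best known from endothelium, other endothelial markers were read alongside. Of 14 such markers 12 were in the table, *CDH5* had at most 3 reads in every library, and 2 to 4 markers per group had no read at all. Only *ROBO4*, *KDR*, *ESAM* and *MMRN2* averaged 0.5 RPKM or more in MDA-MB-231 groups, and *ROBO4*, *ERG* and *MMRN2* in Hs-578T groups. The markers summed to 49.6 to 52.0 RPKM in parental MDA-MB-231, 21.2 to 22.3 RPKM in ERK5-ko and 92.1 to 95.5 RPKM in MEK5DD cells, and to 6.44 to 9.15 RPKM in all Hs-578T libraries. A sum is weighted toward the most abundant markers. Of the 5 tested markers, 3 fell and 0 rose in MDA-MB-231 ERK5-ko (median -0.68), with 0 rising at an unadjusted p under 0.05 and 0 by voom. Of all genes, 10.4% fell and 6.91% rose there. In MDA-MB-231 MEK5DD cells 2 markers rose and 1 fell (median 0.00), where 17.5% of all genes rose and 23.8% fell. Only *ESAM* met the stricter call there (2.28, adjusted p = 1.76e-08). The part of these markers in the *PECAM1* result was not tested.

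The derivatives of a line can also be set against each other, which in Hs-578T compares cells of the same labelled passages. In Hs-578T, *VEGFA* (1.60-fold), *VEGFC* (1.58-fold), *ANGPT1* (3.05-fold), *PECAM1* (2.21-fold) and *ENG* (1.34-fold) were higher in ERK5-ko than in MEK5DD cells, where 30.7% of all genes were, and *VEGFB* decreased by 17.9%, where 19.2% of genes were lower. The log2 differences were 0.68 for *VEGFA* (adjusted p = 2.00e-04), 0.65 for *VEGFC* (adjusted p = 0.000756), 1.59 for *ANGPT1* (adjusted p = 2.29e-06) and 1.03 for *PECAM1* (adjusted p = 2.41e-05). *ENG* (0.43, adjusted p = 0.0194) lost the call without ERK5-ko replicate 1 (0.34, adjusted p = 0.128) or MEK5DD replicate 1 (0.26, adjusted p = 0.145), with a pseudocount of 0.1 (adjusted p = 0.0905), median-ratio scaling (0.0648) or quantile normalization (0.0873), and in a fit of Hs-578T alone (0.0768). *VEGFB* (-0.29, adjusted p = 0.0381) lost it without ERK5-ko replicate 2 (-0.15, adjusted p = 0.319), without either MEK5DD library (0.0875 and 0.0598), in a fit of Hs-578T alone (0.114) and without the parental or MEK5DD libraries of MDA-MB-231 in turn (0.0519 to 0.0595). In MDA-MB-231, *VEGFA* (2.41-fold, log2 1.27, adjusted p = 8.96e-07), *VEGFB* (1.82-fold, 0.86, adjusted p = 3.03e-05) and *ANGPT1* (5.07-fold, 1.86, adjusted p = 3.32e-07) were higher in ERK5-ko than in MEK5DD cells, where 27.1% of all genes were. *ANGPTL4* was lower (-0.53, adjusted p = 0.00527), where 27.9% of genes were, and lost the call without ERK5-ko replicate 2 (-0.42, adjusted p = 0.0515). *PGF* (-0.09) and *PECAM1* (0.03), both down in each derivative against parental cells, overlapped between the derivatives, and *VEGFC* differed by 0.18 (-0.07 to 0.44, adjusted p = 0.202).

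By the stricter call, 3 genes were higher in MDA-MB-231 ERK5-ko (17.5% of all genes, against 6.12% lower) and 4 in Hs-578T ERK5-ko (15.3%, against 3.96% lower) than in MEK5DD cells.

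The same label was accompanied by different changes in the 2 lines. For the 6 genes above the floor in both lines, the ERK5-ko change in MDA-MB-231 minus that in Hs-578T was tested as a contrast, and all 6 differences passed. The difference was positive for *VEGFB* (0.67, 0.34 to 0.99, adjusted p = 0.00434) and *ANGPT1* (1.23, 0.83 to 1.63, adjusted p = 0.000353), where 18.3% of all genes were. It was negative for *VEGFA* (-0.59, -0.90 to -0.28, adjusted p = 0.00655), *VEGFC* (-0.77, -1.12 to -0.41, adjusted p = 0.00354), *PGF* (-1.02, -1.45 to -0.60, adjusted p = 0.00162) and *PECAM1* (-0.92, -1.27 to -0.57, adjusted p = 0.00102), where 21.5% of genes were. For MEK5DD, the difference was negative for *VEGFA* (-1.18, adjusted p = 6.63e-05), *PGF* (-1.03, adjusted p = 0.00142) and *VEGFB* (-0.48, adjusted p = 0.0232), where it was for 18.2% of all genes. These 3 genes fell in MDA-MB-231 MEK5DD and did not pass in Hs-578T MEK5DD. The difference was positive for *ANGPT1* (0.97, 0.57 to 1.37, adjusted p = 0.00156), where it was for 21.3% of genes. *VEGFC* (-0.30, -0.66 to 0.06, adjusted p = 0.173) and *PECAM1* (0.08, -0.27 to 0.43, adjusted p = 0.715) did not pass, and the *PECAM1* sign turned to -0.40 with a pseudocount of 0.1 and to -0.65 by voom. The *VEGFB* difference under MEK5DD was lost without MDA-MB-231 parental replicate 2 (-0.41, adjusted p = 0.0974), MEK5DD replicate 1 (-0.47, adjusted p = 0.0737), MEK5DD replicate 2 (-0.49, adjusted p = 0.063) or Hs-578T parental replicate 1 (-0.43, adjusted p = 0.0617). By the stricter call, 2 ERK5-ko differences were positive (13.3% of all genes) and 1 negative (7.31%), and 1 MEK5DD difference was positive (15.3%) and 2 negative (6.89%). The limits of this call are unequal on the log2 scale, so these counts depend on which line is subtracted. With a fold of 1.5 in both directions, 4 ERK5-ko differences were negative. The level of *MAP2K5*, given above, also differed between the MEK5DD cells of the lines, and its part in these differences was not tested.

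**Figure D4:**
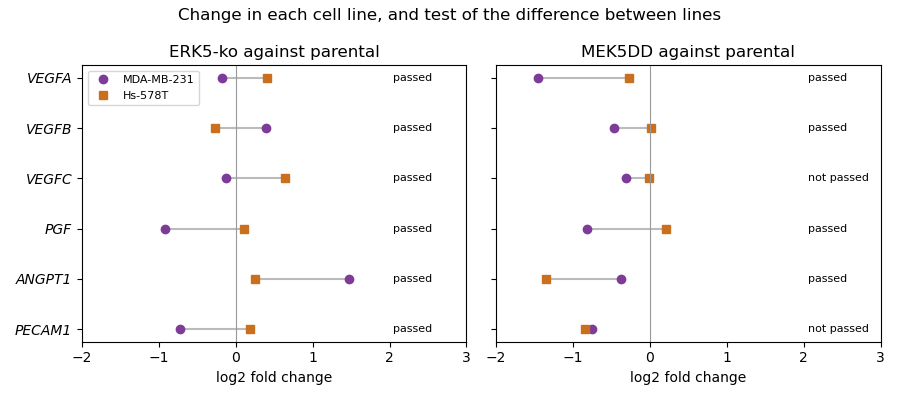
Log2 fold change against parental cells in MDA-MB-231 (circles) and Hs-578T (squares) for the 6 genes above the floor in both lines, with the result of the test of the difference between lines at the right. All 6 ERK5-ko differences passed, from -1.02 (*PGF*) to 1.23 (*ANGPT1*), and 4 of the 6 MEK5DD differences did.

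The receptors for these ligands were scarce in the cancer cells, with the exception of the neuropilins, co-receptors for VEGF-A and semaphorins. *FLT1* (VEGFR1) and *FLT4* (VEGFR3) averaged at most 0.0354 and 0.0205 RPKM in any group, and *TEK* (TIE2) at most 0.197 RPKM. *KDR* (VEGFR2) averaged 1.58 RPKM in parental MDA-MB-231, 0.796 RPKM in ERK5-ko and 2.34 RPKM in MEK5DD cells, and at most 0.268 RPKM in Hs-578T. *NRP1* averaged 163, 145 and 108 RPKM in parental, ERK5-ko and MEK5DD cells of MDA-MB-231, and *NRP2* 27.3, 16.8 and 41.3 RPKM. Of the 5 receptor genes, 3 were tested. In MDA-MB-231 ERK5-ko cells *KDR* (-0.68, adjusted p = 0.00178) and *NRP2* (-0.69, adjusted p = 0.013) fell, and in MEK5DD cells *KDR* (0.45, adjusted p = 0.00691) and *NRP2* (0.59, adjusted p = 0.012) rose while *NRP1* fell (-0.59, adjusted p = 0.00314). In Hs-578T MEK5DD cells 1 of the 3, *NRP1*, fell (-0.45, adjusted p = 0.0259), and in Hs-578T ERK5-ko cells none passed by limma, with 0 at an unadjusted p under 0.05 and 0 by voom. The medians of these 3 genes were -0.68, 0.12, 0.45 and 0.13 in ERK5-ko cells of MDA-MB-231, ERK5-ko cells of Hs-578T, MEK5DD cells of MDA-MB-231 and MEK5DD cells of Hs-578T, an order kept for all lists that follow. Over all tested genes the medians in that order were -0.04, 0.01, -0.01 and -0.08. Of all tested genes 6.91%, 19.7%, 17.5% and 6.44% rose and 10.4%, 19.7%, 23.8% and 17% fell, to be set beside all receptor counts here. Among the 7 receptors of angiopoietin 1 and endoglin ligands, 5 were tested, with medians of -0.08, -0.08, -0.35 and 0.05. Of these 5, 2 fell in MDA-MB-231 ERK5-ko, 1 fell in Hs-578T ERK5-ko, 1 rose and 2 fell in MDA-MB-231 MEK5DD, and 1 fell in Hs-578T MEK5DD. *TGFBR2*, the type II TGF-beta receptor, was the only gene of this list to meet the stricter call in a comparison with parental cells of the same line, falling in MDA-MB-231 ERK5-ko (-1.02, adjusted p = 7.24e-05), and it rose in MDA-MB-231 MEK5DD (0.56, adjusted p = 0.000978). Of the 9 other VEGF and angiopoietin family ligands only *ANGPTL2* was tested, which fell in Hs-578T ERK5-ko (-0.98, adjusted p = 0.000597) and MDA-MB-231 MEK5DD (-1.47, adjusted p = 1.94e-05) and rose in Hs-578T MEK5DD (1.87, adjusted p = 1.96e-05).

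The other secreted angiogenic factors rose and fell in each comparison. Of 25 tested pro-angiogenic factors, 5 rose and 6 fell in MDA-MB-231 ERK5-ko, 10 rose and 5 fell in Hs-578T ERK5-ko, 11 rose and 8 fell in MDA-MB-231 MEK5DD, and 10 rose and 3 fell in Hs-578T MEK5DD (medians 0.00, 0.15, 0.00 and 0.31). Over all tested genes, 6.91%, 19.7%, 17.5% and 6.44% rose and 10.4%, 19.7%, 23.8% and 17% fell in the same order. Unlike those of the 8 genes, the counts and medians of all gene lists here keep genes at the floor in a line. Such genes can hardly change there and draw a median toward 0, as in the medians of 0.00 in MDA-MB-231. The widest called changes in the 4 comparisons were *PDGFB*, the PDGF-BB chain gene, in MDA-MB-231 ERK5-ko (mean 2.07 to 6.80 RPKM, adjusted p = 6.73e-05), *CTGF*, a matricellular factor, in Hs-578T ERK5-ko (1.23, adjusted p = 1.16e-05), *ADM*, which encodes adrenomedullin, in MDA-MB-231 MEK5DD (2.54, adjusted p = 2.34e-08) and *CXCL8*, which encodes interleukin 8, in Hs-578T MEK5DD (1.66, adjusted p = 0.00131). Each of them was also called in another comparison with parental cells. *PDGFB* fell (-1.06) and *CTGF* rose (1.01) in MDA-MB-231 MEK5DD, and *ADM* fell in MDA-MB-231 ERK5-ko (-1.07). *CXCL8* rose in Hs-578T ERK5-ko (0.87) and MDA-MB-231 MEK5DD (0.93). Of 14 tested genes listed as anti-angiogenic, 3 rose and 3 fell, 3 rose and 7 fell, 6 rose and 5 fell, and 5 rose and 1 fell (medians 0.10, -0.28, 0.13 and 0.24), beside the same shares of all genes. These counts include *VASH2*, which unlike *VASH1* is known as pro-angiogenic. It fell in Hs-578T ERK5-ko (-1.35, adjusted p = 1.05e-05) and rose in MDA-MB-231 MEK5DD (1.26, adjusted p = 9.31e-06). In this list *THBS2*, thrombospondin 2, rose from a mean of 2.19 to 24.5 RPKM in MDA-MB-231 ERK5-ko (3.21, adjusted p = 7.63e-07), and *SERPINF1*, the gene of PEDF, fell in Hs-578T ERK5-ko (-1.93, adjusted p = 2.58e-05). The antiangiogenic protease gene *ADAMTS1* rose in MDA-MB-231 MEK5DD (2.79, adjusted p = 3.45e-08), and *SEMA3F*, a neuropilin 2 ligand, fell in Hs-578T MEK5DD (-1.47, adjusted p = 5.54e-05). These genes too were called elsewhere. *THBS2* fell in Hs-578T ERK5-ko (-1.28) and MDA-MB-231 MEK5DD (-2.33), and *SERPINF1* rose in MDA-MB-231 MEK5DD (0.96). In Hs-578T ERK5-ko *ADAMTS1* rose (1.35) and *SEMA3F* fell (-1.17).

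Genes of the hypoxia pathway were read because *VEGFA* and *ANGPTL4* are known targets. Of 30 tested, 5 rose and 3 fell in MDA-MB-231 ERK5-ko, 5 rose and 3 fell in Hs-578T ERK5-ko, 2 rose and 15 fell in MDA-MB-231 MEK5DD, and 4 rose and 8 fell in Hs-578T MEK5DD (medians 0.12, 0.03, -0.29 and -0.13, with all-gene medians as above). Of all tested genes, 17.5% rose and 23.8% fell in MDA-MB-231 MEK5DD and 6.44% rose and 17% fell in Hs-578T MEK5DD, against 6.91% and 10.4% in MDA-MB-231 ERK5-ko and 19.7% each way in Hs-578T ERK5-ko. *HIF1A*, the hypoxia-inducible factor 1 alpha gene, fell in MEK5DD cells of MDA-MB-231 (-0.53, adjusted p = 0.00225) and of Hs-578T (-0.51, adjusted p = 0.00672). *EPAS1*, the gene of HIF-2 alpha, rose in MDA-MB-231 MEK5DD (0.54, adjusted p = 0.00244) and in Hs-578T ERK5-ko (0.36, adjusted p = 0.0241). *CA12*, a carbonic anhydrase gene, fell from a mean of 40.8 to 1.02 RPKM in MDA-MB-231 MEK5DD (-4.77, adjusted p = 2.87e-10) and from 37.6 to 17.9 RPKM in Hs-578T MEK5DD (-1.04, adjusted p = 0.000229). *CA12* rose in MDA-MB-231 ERK5-ko (1.13, adjusted p = 0.000171). *CA9* rose in MDA-MB-231 ERK5-ko (1.83, adjusted p = 5.68e-06) and fell in MDA-MB-231 MEK5DD (-3.29, adjusted p = 5.68e-09). *ANKRD37* rose in Hs-578T ERK5-ko (1.04, adjusted p = 0.0208). Of 12 tested PPAR targets and lipoprotein lipase genes, the setting in which *ANGPTL4* acts, 2 rose and 1 fell, 2 rose and 3 fell, 2 rose and 7 fell, and in Hs-578T MEK5DD 4 fell and by limma 0 rose, with 1 at an unadjusted p under 0.05 and 0 by voom (medians 0.12, 0.09, -0.45 and -0.10), to be set beside these shares of all genes. *LIPG*, endothelial lipase, fell in ERK5-ko (-1.10, adjusted p = 0.000499) and MEK5DD (-3.28, adjusted p = 1.84e-08) cells of MDA-MB-231. *FABP4*, a fatty acid carrier, rose from a mean of 3.09 to 26.0 RPKM in Hs-578T ERK5-ko (2.88, adjusted p = 2.18e-07). *PDK4*, a brake on pyruvate oxidation, fell in Hs-578T MEK5DD (-1.07, adjusted p = 0.000951). It also fell in MDA-MB-231 MEK5DD (-1.09, adjusted p = 0.000246) and Hs-578T ERK5-ko (-0.62, adjusted p = 0.0112).

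For the 3 genes of the 8 that met the stricter call against parental cells, the tested genes with the most similar profile over the 12 libraries were sought by the root mean square difference of centred log2 values. *IDS* (0.130) and *BTN3A2* (0.131) were nearest to *VEGFA*, beside a median of 0.717 over all tested genes. *MTMR10* (0.109) and *TIMM21* (0.111) were nearest to *VEGFC* (median 0.627), and *AKR1C1* (0.471) and *SYNGR3* (0.587) to *ANGPT1* (median 2.48).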

How the data were processed

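RNA-seq was analysed for 12 libraries, 2 in each of 6 groups, 3 per cell line, grouped and numbered by their labels. RNA came from cultured cells, with a library kit that keeps the strand of mRNA. The values deposited by the authors are RPKM per gene. The submitters' processing notes name bcl2fastq, Trimmomatic 0.32, TopHat2 2.1.1, R 3.3.1, DESeq2 1.12.4 and GRCh38. The counting tool and its strand setting are not given in the sources used here.

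Read counts could be recovered from the deposited RPKM: all 32152 genes gave whole reads in every library (100.0%, relative tolerance 1e-06), while with totals 1% off 0 of 500 genes did. The gene lengths so obtained were within 1% of the mean transcript length in GENCODE 29 for 7 of the 8 genes, *VEGFA* being 23.4% longer. These lengths set any comparison of levels between genes.

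Log2(RPKM + 0.5) of 13737 protein-coding genes with at least 0.5 RPKM in at least 2 libraries was fitted with limma 3.58.1 (R 4.3.3, trend, 6 group means, 6 residual degrees of freedom). P-values were adjusted by Benjamini-Hochberg over all genes of a comparison, with a threshold of 0.05. The stricter call added a fold above 1.5 or below 0.5. The fit was run on simulated reads with the same added spread in all groups and no passage, clone or replicate effect. That run cannot check the p-values of the real libraries. Genes with at most 3 reads in each library of a group were taken as at the floor, which covers counting error only, and got no fold when both groups were.

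The 8 genes and the gene lists were chosen with earlier results of these data known. Other genes are named where they were the widest called change of a list in a comparison with parental cells, where they are receptors or hypoxia factors, or by profile. Libraries of a line with the same replicate number deviated together (6 pairs, r 0.107 to 0.541), and those of different lines did not (9 pairs, r -0.418 to -0.0599), so that the number was tried as a block within each line. The 2 libraries of each group differed by 2.67 to 38.5 times the sampling noise (chi-square per degree of freedom). The highest values were 38.5 in MEK5DD and 28.2 in parental cells of Hs-578T, and no other group was above 8.21. Since the fit shares the spread over all groups, p-values of Hs-578T MEK5DD against parental may be too small. Python 3.11.15, numpy 2.4.6, pandas 2.3.3 and matplotlib 3.10.9 were used.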

Additional observations from a re-analysis of the deposited data

Results flagged for a closer look

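Differences between the lines were singled out where the change against parental cells differed between MDA-MB-231 and Hs-578T by a limma contrast (change in MDA-MB-231 minus change in Hs-578T, adjusted p under 0.05). For ERK5-ko these were *VEGFA* (-0.59), *VEGFB* (0.67), *VEGFC* (-0.77), *PGF* (-1.02), *ANGPT1* (1.23) and *PECAM1* (-0.92). For MEK5DD these were *VEGFA* (-1.18), *VEGFB* (-0.48), *PGF* (-1.03) and *ANGPT1* (0.97). *ANGPTL4* and *ENG* gave no such difference to test, since each had at most 3 reads in every library of 1 line. Groups of 2 libraries are too small to look for a single library apart from the rest.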

How the results depend on the processing

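Of 744 fold changes of single genes refitted with 1 library left out, 695 kept their direction and their side of the threshold, 26 lost it, 14 gained it and 9 changed sign, and of 596 under other settings 572 kept both, 9 lost it, 8 gained it and 7 changed sign. A lone library left in a group was assumed to vary like the others. The replicate block changed no call other than those named above (*VEGFB* in Hs-578T ERK5-ko, *VEGFC* in MDA-MB-231 MEK5DD, *VEGFA* in Hs-578T MEK5DD and between the parental lines, adjusted p 0.0337 to 0.0429) and no count. Voom on recovered reads was added after seeing the data. The cause of the changes below was not tested.

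The counts by the stricter call moved mainly with the fold rule. Without a fold threshold, MDA-MB-231 ERK5-ko had 2 genes higher and 3 lower (1 and 0 as reported), Hs-578T ERK5-ko 2 higher (1), MDA-MB-231 MEK5DD 5 lower (1), Hs-578T MEK5DD 2 lower (1), and ERK5-ko against MEK5DD 1 lower in each line (0), while the ERK5-ko difference between lines had 4 negative (1). With a fold of 1.5 in both directions, 3, 3 and 2 genes were lower in MDA-MB-231 ERK5-ko, MDA-MB-231 MEK5DD and Hs-578T MEK5DD, and 4 ERK5-ko differences were negative. With a pseudocount of 0.1, and by voom, 2 genes were lower in MDA-MB-231 ERK5-ko, 2 in MDA-MB-231 MEK5DD and 2 in the ERK5-ko difference. With a pseudocount of 1 the negative differences were 0 for ERK5-ko and 1 for MEK5DD (2 as reported), with quantile normalization likewise 0 and 1, and with median-ratio scaling 0 for ERK5-ko. Median-ratio scaling and quantile normalization each gave 2 genes higher in Hs-578T ERK5-ko than in MEK5DD (4 as reported). Asking for a mean of 1 RPKM removed *ANGPTL4* and left 0 genes lower in parental Hs-578T. With 1 library left out, the ERK5-ko differences ranged from 1 to 2 positive and from 0 to 2 negative, and the MEK5DD differences from 1 to 2 negative.

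Signs turned only among values that had not passed. For Hs-578T MEK5DD, *VEGFC* was 0.082 with median-ratio scaling, 0.10 with quantile normalization, 0.0121 by voom and -0.14 to 0.12 with a library left out, and *VEGFB* was -0.0274 to 0.0672. *PGF* in Hs-578T ERK5-ko was -0.0794 to 0.30, and *ANGPTL4* in MDA-MB-231 MEK5DD -0.30 to 0.0369, with 0.001 after quantile normalization. In MDA-MB-231 ERK5-ko against MEK5DD, *PGF* was -0.21 to 0.0293 and *PECAM1* -0.0849 to 0.14. *VEGFA* between the parental lines was 0.0259 with median-ratio scaling. The MEK5DD difference of *PECAM1* was -0.40 with a pseudocount of 0.1, -0.65 by voom and -0.028 to 0.19 with a library left out.

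Over all genes, calls higher and lower went from 3225 and 2848 to 3965 and 2117 between the parental lines with median-ratio scaling, and with quantile normalization from 1049 and 867 to 1333 and 695 in MDA-MB-231 MEK5DD and from 398 and 204 to 586 and 168 in Hs-578T MEK5DD. With a fold of 1.5 in both directions the lower calls against parental cells rose from 147 to 689, 449 to 1343, 867 to 1923 and 204 to 888. Depth limits *PECAM1* and *ANGPTL4* in MDA-MB-231, where 6 to 75 reads were counted per library.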
